A study of Oryza sativa with 13 samples.

Results

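The 2 libraries compared here are endosperm of the rice cultivar ZH-11 (Zhonghua11, japonica) at 6 and at 9 days after pollination (DAP). They were chosen by their labels, and their lists hold 36871 and 36132 peaks, together 73003 of the 302642 peaks in the 7 ZH-11 lists analysed. The labels name no mutation or treatment for either group, and all plants grew in the same phytotron regime. Endosperm was dissected by hand, and the labels do not say how many seeds or plants went into a library. Methylated DNA was captured with an antibody against 5-methylcytosine and sequenced (MeDIP-seq). A peak is a stretch in which captured fragments are denser than in their surroundings. Each stage was 1 library, so differences between the stages have no replicate check and no test was possible. Intervals are exact 95% Clopper-Pearson intervals, which treat peaks as independent and cover counting error only.

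Endosperm feeds the embryo and, later, the seedling, and in the days sampled it turns from cell division to the storage of starch and protein. Plants methylate cytosine in the CG, CHG and CHH contexts, chiefly over transposable elements, and MeDIP does not tell these contexts apart. In cereal endosperm the maternal genome carries less methylation than the paternal one, because DNA glycosylases of the DEMETER and ROS1 family remove methylcytosine in the central cell before fertilisation.

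Filtered depth was 7302523 tags at 6 DAP and 7465986 at 9 DAP, a ratio of 1.02, where a tag is 1 aligned read. Keeping 1 tag per position had removed 5.55% of the tags at 6 DAP and 4.03% at 9 DAP. Peaks held 57.9% of the filtered tags at 6 DAP and 54.2% at 9 DAP. Median fold enrichment, the authors' ratio of summit tags to local background, was 6.66 at 6 DAP and 6.02 at 9 DAP. The median score, 10 times the negative base-10 logarithm of the peak's p-value, was 135 and 118. The 9 DAP library was thus slightly deeper, with a smaller share of its tags in peaks. The part of these differences in the results that follow was not tested.

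Most methylation peaks of 6 DAP endosperm were still listed at 9 DAP. Of the 36871 peaks at 6 DAP, 6395 had no overlap of even 1 bp at 9 DAP and are called lost, which is 17.3% of the list (interval 17 to 17.7). Of the 36132 peaks at 9 DAP, 5897 had no overlap at 6 DAP and are called gained, 16.3% (15.9 to 16.7). With the lists cut to equal numbers of highest-scoring peaks the order turned, with 16.6% lost and 17.2% gained. That cut removes only the lowest-scoring 6 DAP peaks. The gained share could thus only rise, and peaks of low score were those most often lost. The other 30476 peaks at 6 DAP and 30235 at 9 DAP are called kept. For comparison, 15.7% of the 3 DAP endosperm peaks were lost by 6 DAP, and 17.1% of the 6 DAP peaks were gained in that step. That step shares the 6 DAP library. In embryo, which shares no library with this comparison, 12.3% were lost and 15.1% gained from 6 to 9 DAP. No test of these differences between steps was possible.

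The list became shorter while the DNA it covers became longer. Peaks covered 47.3 Mb at 6 DAP and 49.0 Mb at 9 DAP, a rise of 1.72 Mb. Lost peaks took away 6.13 Mb and gained peaks added 5.59 Mb, so that turnover alone changed the cover by -0.54 Mb. Kept peaks widened from 41.2 to 43.4 Mb, a difference of 2.25 Mb. The increase in cover therefore lay in kept peaks. Cut by score to the number of 9 DAP peaks, the 6 DAP list covered 46.7 Mb, against 49.0 Mb at 9 DAP. This cut drops 6 DAP peaks only, so it could not reverse the order of the stages. With only peaks scoring at least 100 the cover was 34.9 Mb at 6 DAP and 33.7 Mb at 9 DAP, and among peaks with a fold enrichment of 5 or more 34.0 and 28.7 Mb, lower at 9 DAP both times. Score and fold enrichment were lower across the 9 DAP list, so a fixed limit on either removes more of its peaks. In number, the list differed by -739 peaks, of which -498 came from the balance of gained and lost peaks and -241 from kept peaks that were joined or divided. Both lists covered 38.1 Mb in common, which is 80.6% of the 6 DAP cover and 77.7% of the 9 DAP cover.

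Lost and gained peaks were short and weak. The median length was 744 bp for lost peaks (quartiles 598 and 974) and 760 bp for gained peaks (625 and 987). Kept peaks had a median of 1066 bp at 6 DAP and 1101 bp at 9 DAP. The quartiles overlap, but the upper quartile of each unpaired class lies below the median of the kept class. Signal per peak is given as RPM, the peak's tags per 1000000 filtered tags. Lost peaks held a median of 6.03 RPM (quartiles 4.79 and 9.17) against 11.8 for kept peaks at 6 DAP. Gained peaks held a median of 5.63 (4.69 and 8.04) against 11.1 for kept peaks at 9 DAP. In raw tags the medians were 44 for lost and 42 for gained peaks, where the smallest peak of either list has 24. A region without a listed peak has no tag number at that stage, so a lost peak is one that fell under the caller's limit and need not have lost its methylation.

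**Figure D1:**
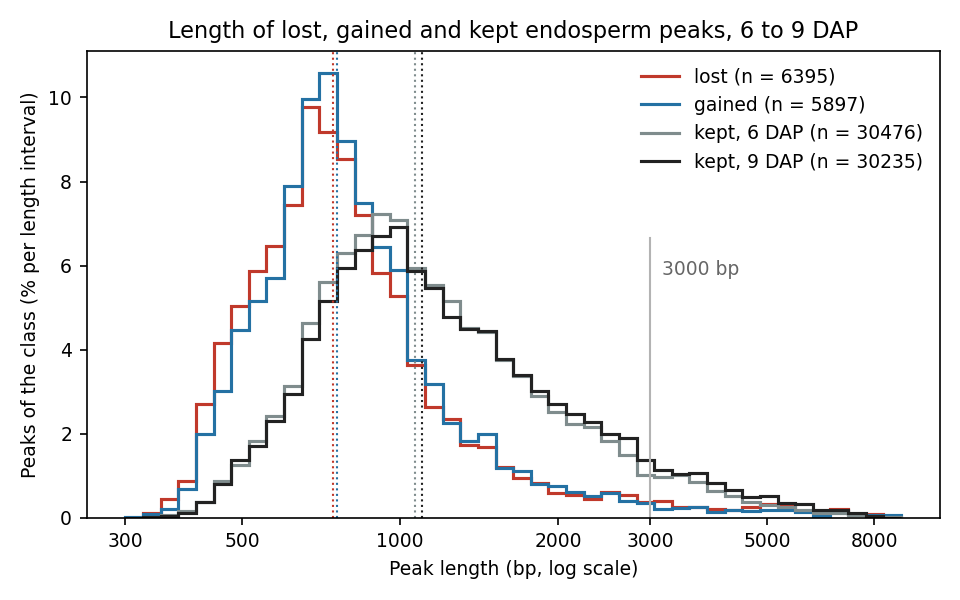
Histograms of peak length (horizontal axis, bp, log scale) as the percent of each class in every length interval (vertical axis), for lost and gained peaks and for kept peaks at each stage; dotted lines are medians and the grey line marks 3000 bp. Lost and gained peaks have medians of 744 and 760 bp, to the left of the kept classes at 1066 and 1101 bp.

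Whether a peak was shared followed its score closely. At scores from 50 to 75, 45.1% of 6 DAP peaks were lost and 41.9% of 9 DAP peaks were gained. At scores from 100 to 200 the shares were 10.5% and 6.72%. At scores from 200 to 300 they were 1.78% and 0.491%. Scores under 100 belonged to 78.6% of lost and 85.7% of gained peaks, against 26.6% and 32.3% of kept peaks at 6 and 9 DAP.

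Few lost or gained peaks lay just beside a partner. A peak of the other stage came within 200 bp of 477 lost peaks (7.46%) and 414 gained peaks (7.02%). Within 5 kb the shares were 75.4% and 73.3%. Among kept peaks, 60 of the 6 DAP list and 47 of the 9 DAP list were kept through an overlap of 100 bp or less.

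By length, the share without a partner was lowest in peaks of middling length and higher at both ends. It was 43.5% lost and 38.2% gained under 600 bp, 5.73% lost and 4.75% gained from 2000 bp to under 3000 bp, and 6.03% lost and 3.91% gained from 3000 bp to under 4000 bp. The lost share was lowest in the former class and the gained share in the latter. In the longest classes it was higher again: 18.3% (13.5 to 24.0) of the 229 peaks from 5000 bp to under 6000 bp at 6 DAP were lost, and 29.1% (17.6 to 42.9) of the 55 peaks of 7000 bp or more. For gained peaks the corresponding shares were 7.17% (4.55 to 10.6) of 307 and 20.8% (12.4 to 31.5) of 77. From 5000 bp to under 6000 bp the intervals of lost and gained shares do not overlap, while at 7000 bp and above they do. The median score at 6 DAP was 251 from 2000 bp to under 3000 bp and 101 at 7000 bp or more. At scores from 50 to under 100, 31.1% of peaks of 3000 bp or more were lost, against 38.5% of shorter ones. From 100 to under 200 the shares were 14.3% and 10.4%, and from 200 upward 2.87% and 0.745%. For gained peaks they were 18.5% and 34.6%, 4.28% and 6.89%, and 1.03% and 0.257%. The part of score in the shares by length was not tested.

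**Figure D2:**
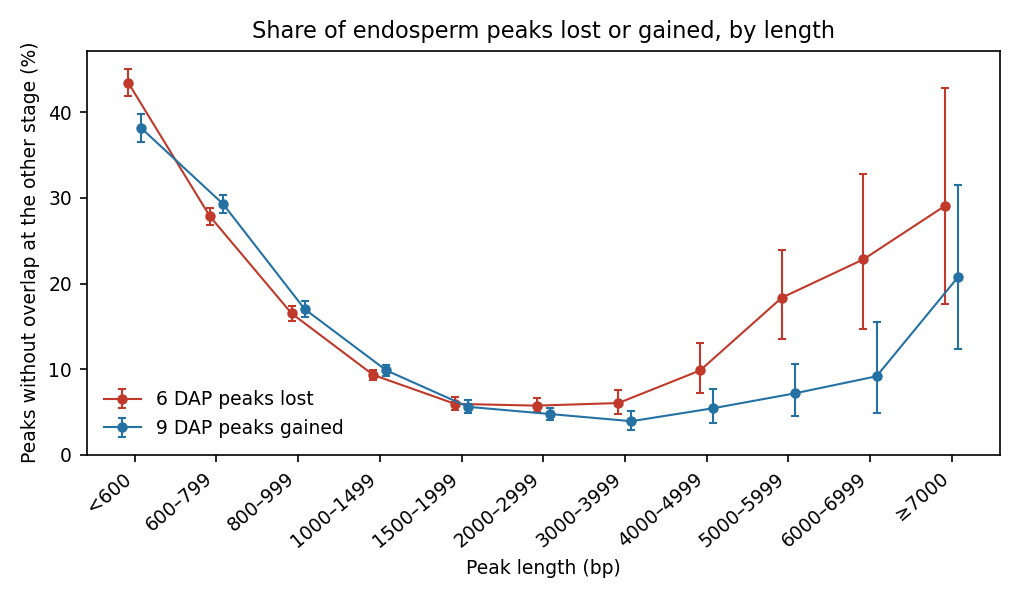
Percent of 6 DAP peaks lost and of 9 DAP peaks gained (vertical axis) in 11 classes of peak length (horizontal axis, bp), with exact 95% intervals for counting error. Both curves fall from 43.5% and 38.2% in the shortest class to their lowest values, 5.73% lost from 2000 bp to under 3000 bp and 3.91% gained from 3000 bp to under 4000 bp, and end at 29.1% and 20.8% in the longest class.

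Long peaks of 3000 bp or more were more numerous at 9 DAP. There were 1924 at 6 DAP and 2321 at 9 DAP, covering 8.0 and 9.88 Mb, or 5.22% and 6.42% of the lists. The number was higher at 9 DAP on each of the 12 chromosomes, by ratios from 1.12 on chromosome 2 to 1.38 on chromosome 3. On chromosome 3 there were 132 at 6 DAP and 182 at 9 DAP. In the preceding step from 3 to 6 DAP the endosperm number went from 1988 to 1924, and in embryo from 6 to 9 DAP it went from 780 to 739. Among peaks with a fold enrichment of 5 or more the order was the opposite, with 678 long peaks at 6 DAP and 363 at 9 DAP, and here too the fixed limit removes more 9 DAP peaks. Among peaks scoring at least 100 there were 1680 and 1867 long peaks.

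The difference came from peaks that crossed 3000 bp. Of the long peaks at 9 DAP, 1460 overlapped a long peak at 6 DAP and 732 overlapped only shorter ones. These 732 had a median of 3587.5 bp, and the longest 6 DAP peak under each had a median of 2279.5 bp. In 198 of them, 2 or more separate 6 DAP peaks lay under the 9 DAP peak. In the other direction 273 long peaks at 6 DAP overlapped only shorter 9 DAP peaks. The gain in long peaks thus lay in the exchange across the length limit. Outright turnover went the other way, with 129 long peaks at 9 DAP (5.56%) gained and 189 at 6 DAP (9.82%) lost.

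Peaks within 100 bp of the limit had like RPM on either side. At 6 DAP, 145 peaks just above 3000 bp had a median of 40.8 RPM and 134 peaks just below it had 40.7. At 9 DAP the medians were 37.9 in 171 peaks and 36.3 in 177. Without a partner were 8 peaks just above and 16 just below the limit at 6 DAP, and 4 and 8 at 9 DAP.

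The 189 long lost peaks were not weak in tags. Their median length was 4666 bp and they held 70.4 RPM, against 57.0 in the 1735 long peaks that were kept. Those kept peaks were shorter, with a median of 3745 bp. Per kb of peak length the lost and kept peaks were alike, at 14.7 and 14.8 RPM per kb. At like length the lost peaks were slightly lower on both measures. The 691 kept peaks of 4001 to 8626 bp had a median length of 4772 bp, with 75.7 RPM and 15.7 RPM per kb. The quartiles overlap. The score of the lost peaks was lower than in all long kept peaks, with a median of 121 against 248.5. Their fold enrichment was also lower, 3.85 against 4.68. In the 691 kept peaks the score was 244 and the fold enrichment 4.41. The 129 long gained peaks had a median of 13.5 RPM per kb against 13 in long kept peaks at 9 DAP, with a score of 89.4 against 195. The gained peaks were the longer here, with medians of 4533 and 3872.5 bp. In the caller's settings the local background spans 10 kb of the same library, and no peak exceeded 8626 bp at 6 DAP or 8630 bp at 9 DAP. Median fold enrichment at 6 DAP went from 5.68 from 2000 bp to under 3000 bp to 3.62 at 7000 bp or more, while the RPM per kb went from 13.1 to 17.8. The part of the local background in these losses and gains was not tested.

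The lost peaks with the most tags were all long. The first spanned bases 16940762 to 16948461 of chromosome 1 (7700 bp, coordinates as deposited, genome build not given in the sources used here). It held 1237 tags at 6 DAP, or 169 RPM, with a score of 81.4. A peak overlapped it in all 3 embryo libraries and in neither endosperm library at 2 or 3 DAP. The next 4 were on chromosome 2 from 19523230 to 19531266 (169 RPM), chromosome 4 from 4117106 to 4123772 (156), chromosome 5 from 29803312 to 29810209 (155) and chromosome 9 from 13337919 to 13345966 (154). Each of these was also overlapped in all 3 embryo libraries, and in 1 or both of the earlier endosperm libraries. The longest lost peak spanned bases 2077291 to 2085583 of chromosome 12, with 8293 bp, 976 tags and a score of 73.9, and was overlapped in all 5 other libraries. The next longest were those on chromosomes 9 and 2 just named.

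The gained peaks with the most tags were long as well. The first spanned bases 14243612 to 14251977 of chromosome 10 (8366 bp) and held 1372 tags at 9 DAP, or 184 RPM, with a score of 59.6. The others lay on chromosome 3 from 21244699 to 21253328 (181 RPM), chromosome 8 from 28423007 to 28431392 (177), chromosome 2 from 33277149 to 33284695 (146) and chromosome 11 from 20928133 to 20936479 (144). The chromosome 3 peak, at 8630 bp the longest of the list, was overlapped in embryo at 9 DAP and in no other of the 5 libraries. The chromosome 2 peak was overlapped in none of them, and the chromosome 11 peak in all 5. The 3 longest gained peaks were those on chromosomes 3, 8 and 10.

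Among the longest peaks of each stage, some had a partner of like length and others a much shorter one or none. At 6 DAP the longest, on chromosome 2 from 10826825 to 10835450 (8626 bp, 171 RPM), had under it a 9 DAP peak of 5775 bp with 107 RPM. The next, on chromosome 12 from 19549798 to 19558300 (8503 bp, 156 RPM), met a 9 DAP peak of 1437 bp with 22.8. In contrast, the peaks of 8384, 8380 and 8346 bp on chromosomes 5, 10 and 4 had single partners of 8214, 8205 and 8295 bp. At 9 DAP, 4 of the 5 longest peaks had no partner, and the other, on chromosome 11 from 13078752 to 13087096 (8345 bp), had a partner of 4547 bp.

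Kept peaks overlap at both stages by definition, and a peak that had moved away would count as lost and gained. Their near positions are thus partly set by that rule. Of the kept peaks, 28107 formed one-to-one pairs, in which each peak overlaps no other peak of the other list. Their summits were a median of 44 bp apart, and 81.6% were within 200 bp. The 9 DAP peak was longer in 58.0% of pairs, with a median difference of 31 bp, and moved outward by a median of 13 bp at the left and 12 bp at the right edge. At the median of these pairs, widening was thus small and alike on both sides. By at least 1.5 times, 5.98% of pairs were longer and 3.16% shorter. Beyond the pairs, 915 peaks at 9 DAP lay over 2 or more 6 DAP peaks (14 of them over 3), and 680 peaks at 6 DAP lay over 2 or more at 9 DAP (8 over 3).

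Within the pairs, RPM was slightly lower at 9 DAP. The median was 11.6 RPM at 6 DAP and 11.0 at 9 DAP, and the median log2 ratio of 9 to 6 DAP was -0.08 (quartiles -0.31 and 0.16). It was lower in 59.3% of pairs and higher in 40.7%. Per kb of peak length the median log2 ratio was -0.12, and fold enrichment was lower at 9 DAP in 74.6% of pairs. The fall per kb was greater in denser peaks. Ranked into 5 groups by their mean over both stages, the least dense group of pairs had medians of 7.58 and 7.41 RPM per kb at 6 and 9 DAP. The densest group had medians of 16.5 and 14.2, with a lower value at 9 DAP in 83.6% of its 5622 pairs. From the least to the densest group the median log2 ratios per kb were -0.03, -0.07, -0.11, -0.16 and -0.22.

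The other steps gave smaller values by the same measure. In the densest group the median log2 ratio per kb was -0.02 from 3 to 6 DAP in endosperm and -0.02 from 6 to 9 DAP in embryo. With 1 library per stage, a change of the endosperm and a property of the 9 DAP library, whose share of tags in peaks was the lower, cannot be told apart.

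Large changes were rare and were mostly changes of length. At least 2-fold more RPM at 9 DAP were found in 382 pairs, 1.36% of those compared, and at least 2-fold fewer in 377, 1.34%. The balance depended on the scale, with 519 higher and 271 lower when scaled to tags inside peaks, and 492 and 285 when centred on the median pair. From 3 to 6 DAP in endosperm 2.91% of pairs were higher and 1.06% lower, and from 6 to 9 DAP in embryo 0.68% and 0.808%. In the pairs that were higher the median length went from 920 bp to 2085.5 bp, and 364 of the 382 were at least 1.5 times longer. In the pairs that were lower it went from 1426 to 798 bp, and 271 of the 377 were shorter by at least 1.5 times. Over all pairs only 5.98% were longer and 3.16% shorter by that much. Per kb, 1 pair was at least 2-fold higher and 68 were at least 2-fold lower.

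**Figure D3:**
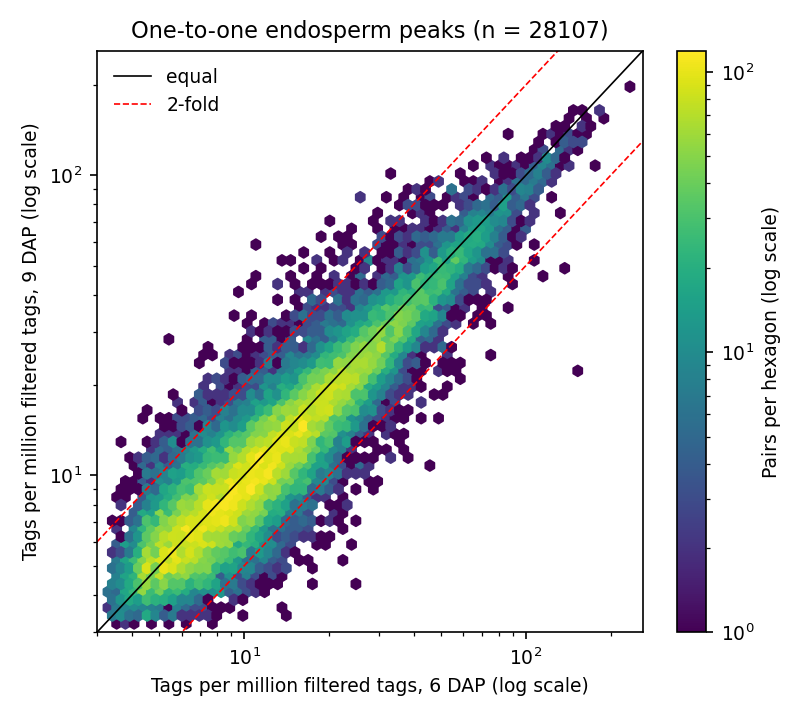
RPM at 6 DAP (horizontal axis) and at 9 DAP (vertical axis), both on log scales, for the 28107 one-to-one pairs; colour gives the number of pairs per hexagon, the solid line marks equal values and the dashed lines a 2-fold difference. Pairs lie along the line of equal values with a median log2 ratio of -0.08, and 382 lie on or above the upper and 377 on or below the lower dashed line.

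The largest rise was on chromosome 12, where the peak from 8144250 to 8145438 held 11.1 RPM at 6 DAP and its partner from 8139351 to 8145473 held 56.8 at 9 DAP. Its length went from 1189 to 6123 bp, and its RPM per kb were 9.33 and 9.28. The next rises were on chromosome 1 at 17235463 (5.48 to 28.0 RPM), chromosome 10 at 9531736 (9.59 to 39.5), chromosome 6 at 28761797 (11.4 to 45.7) and chromosome 10 at 20561428 (10.7 to 42.5), each given by its 6 DAP start. All 5 were longer at 9 DAP, and their log2 ratios per kb ran from -0.37 to 0.39.

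The largest fall was that of the 8503 bp peak on chromosome 12 described above, from 156 to 22.8 RPM. It was followed by chromosome 5 at 15405127 (25.1 to 4.29) and at 19920947 (22.9 to 5.22), chromosome 7 at 4626316 (45.5 to 10.6) and chromosome 11 at 28819362 (14.2 to 3.35). Per kb, the pair on chromosome 5 at 19920947 went from 13.9 to 7.16 RPM per kb, a log2 ratio of -0.96, as its length went from 1648 to 730 bp. The log2 ratios per kb of the other 4 ran from -0.41 to 0.26.

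The 5 ZH-11 libraries outside the comparison show where else lost and gained peaks were listed. Kept peaks of 6 DAP were overlapped in 84.4% of cases by a 2 DAP and in 90.4% by a 3 DAP endosperm peak, and by embryo peaks in 78.0% to 81.0%. Lost peaks were overlapped less often in every library, at 52.3% (51.1 to 53.6) in 2 DAP endosperm, 47.1% (45.8 to 48.3) in 3 DAP endosperm and 49.4% to 52.5% in embryo. Gained peaks were overlapped in 25.7% (24.5 to 26.8) of cases in 2 DAP endosperm, 45.2% (43.9 to 46.5) in 3 DAP endosperm and 44.2% to 48.4% in embryo. In the full lists, lost and gained peaks thus stood farthest apart at 2 DAP. There the lost share was about the same as in the other libraries and the gained share much lower. Among lost peaks scoring at least 100, the shares were 76.1% at 2 DAP, 62.4% at 3 DAP and 57.8% to 65.9% in embryo. For gained peaks of such scores they were 38.0%, 71.2% and 53.6% to 58.6%. The 2 DAP library is the shallowest of the 7, with 6833917 filtered tags, and its list the shortest, with 32986 peaks. Their part in these shares was not tested. Kept peaks were also longer and higher in score than lost and gained ones. The part of length and score in the contrast with kept peaks, here and below, was not tested.

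**Figure D4:**
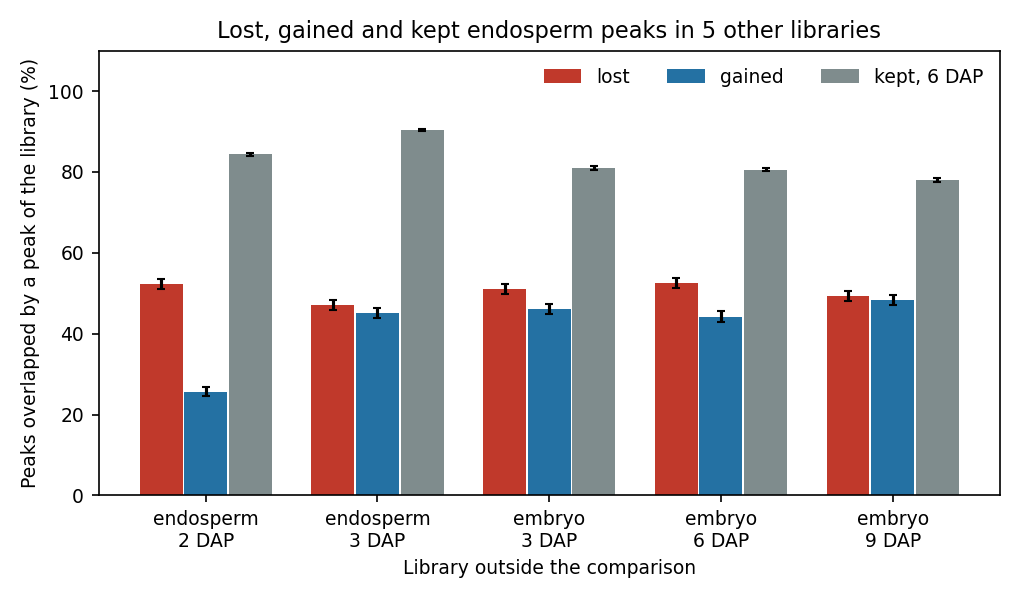
Percent of lost, gained and kept (6 DAP) peaks overlapped by at least 1 bp by a peak of each of the 5 other ZH-11 libraries; bars start at 0 and error bars are exact 95% intervals for counting error. In 2 DAP endosperm 52.3% of lost and 25.7% of gained peaks are overlapped, while in embryo at 9 DAP the shares are 49.4% and 48.4%.

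By history, 1713 lost peaks (26.8%) had been listed at both 2 and 3 DAP, 1634 (25.6%) at 2 DAP but not at 3 DAP, 1297 (20.3%) at 3 DAP but not at 2 DAP, and 1751 (27.4%) at neither. Among gained peaks 922 (15.6%) had been listed at both earlier stages, 591 at 2 DAP only, 1742 (29.5%) at 3 DAP only and 2642 (44.8%) at neither. Among kept peaks, 3.47% at 6 DAP and 3.41% at 9 DAP had been listed at neither, so lost and gained peaks had an earlier listing in a smaller share than kept ones. Peaks listed in none of the other 5 libraries numbered 859 of the lost (13.4%) and 1322 of the gained (22.4%), against 1.57% of kept peaks at 6 DAP and 1.52% at 9 DAP. The unpaired ones were short, with medians of 654 and 693.5 bp, and had a median score of 62.4 in both classes. At the other extreme, 985 lost peaks (15.4%) were listed in all 5 other libraries and so missing at 9 DAP alone, and 444 gained peaks (7.53%) were missing at 6 DAP alone. Of kept peaks, 61.8% at 6 DAP and 62.0% at 9 DAP were listed in all 5.

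Many lost and gained peaks were also listed in embryo. All 3 embryo libraries overlapped 2453 lost peaks (38.4%) and 1997 gained peaks (33.9%), and no embryo library overlapped 2311 (36.1%) and 2416 (41%). Among kept peaks at 6 DAP these shares were 70.6% and 11.6%. Peaks in both earlier endosperm lists and in no embryo list were 243 of the lost (3.80%) and 202 of the gained (3.43%), near the 4.60% of kept peaks at 6 DAP and 4.62% at 9 DAP. Peaks in all 3 embryo lists and in neither earlier endosperm list were 504 of the lost (7.88%) and 762 of the gained (12.9%), against 1.08% of kept peaks at 6 DAP and 1.09% at 9 DAP.

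Long lost peaks were listed in embryo in a larger share than lost peaks as a whole. Of the 189, 132 (69.8%, interval 62.8 to 76.3) were overlapped in all 3 embryo libraries, 95 (50.3%) in both earlier endosperm libraries and 66 (34.9%) in all 5. Long gained peaks were overlapped less, 58 of 129 (45%, 36.2 to 54.0) in all 3 embryo libraries and 37 (28.7%) in both earlier endosperm libraries. A long peak has more length to be overlapped, and of the long peaks kept at 6 DAP 90.4% were overlapped in all 3 embryo libraries.

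Few strong peaks were lost or gained. With a score of 300 or more there were 14 lost and 8 gained peaks, chosen after their values were seen. At scores from 300 to under 500, 13 of 4413 6 DAP peaks were lost (0.295%) and 8 of 3402 9 DAP peaks were gained (0.235%). At 500 or more, 1 of 1937 was lost (0.0516%) and 0 of 943 were gained. Of the 14, 7 were 3000 bp or longer, 8 had been listed in both earlier endosperm libraries and 13 in all 3 embryo libraries. The highest score, 501, belonged to the peak on chromosome 4 from 17281650 to 17286679 (5030 bp, 86.0 RPM). Of the 8 gained peaks, 4 were long, 6 had been listed in both earlier endosperm libraries and 7 in all 3 embryo libraries. The highest, 418, lay on chromosome 9 from 8735545 to 8738248 (2704 bp, 58.7 RPM). Kept peaks of like score were not counted in this way, so these listings cannot be called particular to lost or gained peaks. A short lost peak of 518 bp on chromosome 7 from 1140464 to 1140981 had a score of 364 and a fold enrichment of 15.5, the highest of any lost peak.

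Lost and gained peaks were spread over all chromosomes. The lost share ran from 16.4% (15.2 to 17.7) on chromosome 3 to 18.8% (17.3 to 20.4) on chromosome 9, and the gained share from 15.0% (13.6 to 16.4) on chromosome 10 to 18.0% (16.5 to 19.4) on chromosome 11. The intervals of the lowest and highest lost shares overlap, and those of the gained shares do not, with the chromosomes picked for their values among 12. Cover was higher at 9 DAP on each of the 12 chromosomes, by 1.68% on chromosome 4 to 4.58% on chromosome 2. Chromosome 4 lost 615 peaks and gained 483. The RPM summed over peaks was lower at 9 DAP on each of the 12, by ratios from 0.921 on chromosome 4 to 0.951 on chromosome 10. These ratios are parts of 1 difference between the libraries, whose peaks held 57.9% and 54.2% of the filtered tags. They are not separate observations of a fall.

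By distance from the chromosome end, taken as the last peak in any list, lost shares ran from 17.7% within 2 Mb of an end to 17.1% at 10 Mb or more. Gained shares were 16.5% within 2 Mb, 17.9% from 2 to 5 Mb, 16.5% from 5 to 10 Mb and 15.4% at 10 Mb or more. Neighbouring peaks of a list were lost together little more often than others. The peak after a lost peak was itself lost in 18.3% of cases (17.4 to 19.3), and the peak after a kept one in 17.1% (16.7 to 17.6). For gained peaks the shares were 16.0% and 16.4%. The longest run of lost peaks was 8, on chromosome 2 from 26528206 to 26607253, and the longest run of gained peaks was 5, on chromosome 4 from 31436684 to 31494570.

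The chromosomes were divided into 367 whole bins of 1 Mb, which were ranked into 5 quintiles by their mean cover in the 5 other libraries, so that neither stage compared set the rank. Cover was higher at 9 DAP in 272 bins and lower in 95, with a median difference of 4.41 kb per bin. In the peak-poorest quintile it was 74.7 kb per Mb at 6 DAP and 77.5 at 9 DAP, and in the richest 197 and 204. The ratios of 9 to 6 DAP were 1.04, 1.03, 1.03, 1.04 and 1.04, so the relative gain was alike from poor to rich bins. Gained shares were lower in rich bins, 18.8% (17.7 to 19.9) in the poorest quintile and 15.1% (14.4 to 15.9) in the richest. Lost shares were 18.5% (17.5 to 19.6) and 17.7% (16.9 to 18.4), with overlapping intervals.

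**Figure D5:**
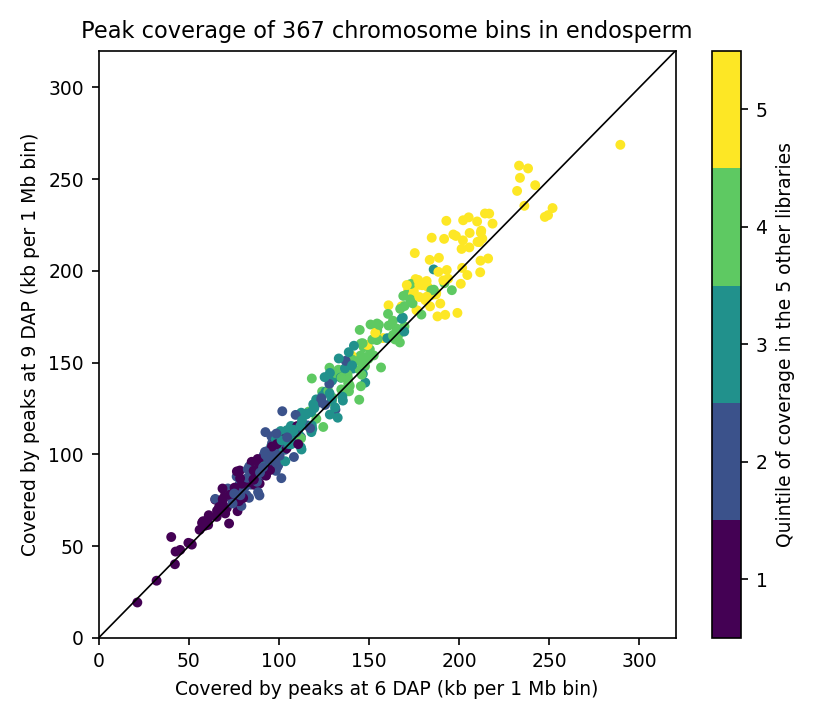
Length covered by peaks in each of 367 bins of 1 Mb at 6 DAP (horizontal axis, kb) and 9 DAP (vertical axis, kb), coloured by quintile of mean cover in the 5 other ZH-11 libraries; the line marks equal cover. Points lie near the line, 272 above and 95 below it.

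Long peaks were most frequent in the richest quintile at both stages. They made up 8.54% of its peaks at 6 DAP and 10.9% at 9 DAP, from 828 and 1008 peaks, against 2.29% and 3.09% in the poorest quintile. The richest quintile also held 98 of the 189 long lost and 63 of the 129 long gained peaks. There the lost share of long peaks was 11.8%, and in the poorest quintile it was 6.09%, from 7 peaks.

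The bins with the largest differences all belonged to the richest quintile. Cover went from 193 to 227 kb on chromosome 10 from 8000001 to 9000000, from 175 to 210 kb on chromosome 5 from 9000001 to 10000000, and from 185 to 218 kb on chromosome 12 from 14000001 to 15000000. In these 3 bins the number of long peaks went from 12 to 20, from 8 to 14 and from 10 to 18, while lost and gained peaks nearly balanced on chromosomes 10 and 5. Cover was lower at 9 DAP on chromosome 9 from 13000001 to 14000000, with 199 and 177 kb, on chromosome 3 from 19000001 to 20000000, with 289 and 269 kb, and on chromosome 12 from 11000001 to 12000000, with 249 and 230 kb. There lost peaks outnumbered gained ones, with 34 and 17, 34 and 12, and 27 and 9.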

How the data were processed

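Per the file headers, the authors called peaks on each library separately with MACS 1.4.2 and no control library, using 41 bp tags, 1 tag per position, fragments of 200 bp, a local background over 10 kb, a limit of 1e-05 on p and 360 Mb as the effective genome. The submitters' processing notes also name Bowtie2. The genome build is not given in the sources used here, so no genes or sequences were assigned. The deposited tag count is whole reads per peak, unscaled. The deposited score is 10 times the negative base-10 logarithm of the p-value. The deposited fold enrichment is a ratio to background from the same library, which densely captured surroundings raise. Lengths and positions are other deposited values, in bp.

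Overlaps, pairs and intervals were computed with Python 3.11.15, numpy 2.4.6, pandas 2.3.3 and scipy 1.17.1, and checked on simulated lists. RPM is a peak's tags divided by filtered tags and multiplied by 1000000. PCR reads are not independent molecules. Intervals are on numbers of peaks treated as independent, with 1 library per stage, so they cover counting error only. Named regions are the 5 lost and 5 gained peaks with the highest RPM, the 3 longest of each, the 5 longest peaks per stage, the 5 pairs with the largest rise and fall at a mean of at least 20 tags, and the 3 bins with the largest gain and loss. Members and rules were chosen with earlier results of these data known. The planned counts over seed storage, starch and methylation genes were not run, for want of the build. The 6 samples of 93-11 were not analysed here.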

Additional observations from a re-analysis of the deposited data

Results flagged for a closer look

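From 6 to 9 DAP, 3 measures moved in opposite directions in endosperm and embryo. With 1 library per tissue and stage, these differences between tissues were not tested. The number of peaks differed by -739 in endosperm, from 36871 to 36132, and by 1851 in embryo, from 53391 to 55242. Peaks of 3000 bp or more differed by 397 in endosperm, from 1924 to 2321, and by -41 in embryo, from 780 to 739. The share of filtered tags in peaks differed by -3.74 percentage points in endosperm, from 57.9% to 54.2%, and by 0.931 in embryo, from 59.0% to 59.9%. Other measures moved the same way in both tissues. Covered length differed by 1.72 Mb in endosperm and 1.91 Mb in embryo, and median peak length by 31.5 and 6 bp. Median fold enrichment differed by -0.64 and -0.16.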

How the results depend on the processing

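No paired analysis was possible because each stage is 1 library and no test was run. Of 70 values recomputed under alternative settings, 24 were labelled as the same and 46 as moved. Shares had to stay within their interval and counts within 1.5 times. Covered and median lengths have no interval, and each length that differed at all was labelled as moved. Lost and gained shares were 24.0% and 15.8% in lists restricted to a score of 100 or more, 28.7% and 18.2% from a fold enrichment of 5 upward, 16.6% and 17.2% with equal numbers of highest-scoring peaks, 5.75% and 3.96% for peaks with a score of 100 or more looked up in the whole other list, 18.3% and 18.2% when at least 50% of the peak had to be covered, and 16.1% and 15.2% when peaks within 200 bp counted as kept. The order of the shares reversed with equal numbers of peaks, where only low-scoring 6 DAP peaks are removed and the gained share could only rise. Covered length was higher at 9 DAP with equal numbers (46.7 Mb at 6 DAP). That setting removes only 6 DAP peaks, so it could not reverse this order. Cover was lower at 9 DAP with a score of 100 or more (34.9 Mb at 6 DAP and 33.7 Mb at 9 DAP). It was also lower from a fold enrichment of 5 (34.0 and 28.7 Mb). Long peaks were fewer at 9 DAP in the last setting (678 and 363) and more numerous from 2000 bp (5048 and 5795) or 5000 bp (376 and 515). Median score and fold enrichment were lower at 9 DAP, so these fixed limits remove more 9 DAP peaks, and the reversals do not show which peaks carry the higher cover or number. Median lengths of lost, gained and kept peaks at 6 and 9 DAP were 929, 990, 1259 and 1312 bp with a score of 100 or more, and 760, 794, 1061 and 1089 bp with 50% coverage. At least 2-fold differences per kb were found in 1 pair higher and 68 lower. Scaled to tags inside peaks, 519 pairs were higher and 271 lower, and centred on the median pair 492 and 285, so the balance of 382 and 377 depends on the scale. The gained share in the poorest quintile was 17.7% with bins ranked by embryo alone, and in the richest 16.0% with equal numbers of peaks. With 50% coverage, overlap of lost peaks was 45.6% in 3 DAP endosperm and 35.0% in all 3 embryo libraries, and of gained peaks 23.2% in 2 DAP endosperm, 43.9% in 3 DAP endosperm and 31.2% in all 3 embryo libraries. For unpaired peaks scoring at least 100, overlap in 2 DAP endosperm, 3 DAP endosperm and all 3 embryo libraries was 76.1%, 62.4% and 48.8% for lost and 38.0%, 71.2% and 42.1% for gained peaks. The lower overlap of gained peaks at 2 DAP held in both settings. At 3 DAP the order turned with a score of 100 or more, where the gained share was above the lost share.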
